A study of Mus musculus with 12 samples.

Results

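Pericentral and periportal hepatocyte zonation genes were examined in mouse livers that overexpress E4BP4 and in wild-type livers. The 33 genes were found by matching a list of names to the gene name column of each count table, out of 48440 genes in all. They comprise 15 genes marking the hepatocytes around the central vein or responding to Wnt signals there, and 18 genes marking the hepatocytes around the portal tract or carrying out the urea cycle. All 33 were found once in every library, and all 33 passed the filter on low counts. Poly(A) RNA of whole liver was sequenced in 4 groups of 3 libraries. These were transgenic mice with liver-specific E4BP4 overexpression (TG) at ZT2, wild-type mice (WT) at ZT2, TG mice at ZT14 and WT mice at ZT14, where ZT counts the hours since lights on. All groups were male C57BL/6 mice labelled 8 weeks old, on a chow diet, in 12 h of light and 12 h of dark. The promoter that drives the transgene is not given in the sources used here. Whether the 3 samples of each group came from different mice is not stated, and the p-values therefore speak only of the spread among these samples.

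Hepatocytes divide their work by position along the path that blood takes from the portal tract to the central vein. Those at the portal end take up ammonia and amino acids and make urea and glucose, while a thin layer around the central vein captures the remaining ammonia by making glutamine. Endothelial cells of the central vein release Wnt ligands and R-spondin, and the resulting β-catenin activity in nearby hepatocytes maintains the pericentral genes and holds back the periportal ones. E4BP4 is the product of the Nfil3 gene, a leucine zipper repressor at D-box elements and a part of the circadian clock's output, and several enzymes of amino acid breakdown follow daily feeding.

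The promoters of 4 members are shown as examples of windows that hold or lack the letters of the motifs searched. The motifs are a D-box, a TCF/LEF motif read by β-catenin's partners and an E-box read by clock factors. Each promoter window is the 250 bases before a RefSeq start site in GRCm38.p6, read 5′ to 3′ on the strand of the gene. Glul, the glutamine synthetase of the innermost pericentral layer, lies at chr1:153899679-153899928 on the plus strand, Sp5 at chr2:70474673-70474922 on the plus strand, Ass1 at chr2:31470020-31470269 on the plus strand and Slc25a13 at chr6:6217174-6217423 on the minus strand. Capitals mark a TCF/LEF motif in Sp5 and an E-box in Ass1 and Slc25a13, and the Glul window held none of the 3 motifs searched.
Glul: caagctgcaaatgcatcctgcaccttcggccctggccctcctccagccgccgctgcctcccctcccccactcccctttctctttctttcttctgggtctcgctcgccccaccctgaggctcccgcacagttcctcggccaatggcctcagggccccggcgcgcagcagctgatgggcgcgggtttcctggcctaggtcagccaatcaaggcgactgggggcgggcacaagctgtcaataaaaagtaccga
Sp5: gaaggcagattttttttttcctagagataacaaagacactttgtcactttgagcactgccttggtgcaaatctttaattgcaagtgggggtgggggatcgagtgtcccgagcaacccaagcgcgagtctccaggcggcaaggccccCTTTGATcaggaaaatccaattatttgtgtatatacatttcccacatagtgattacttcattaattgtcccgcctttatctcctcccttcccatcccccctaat
Ass1: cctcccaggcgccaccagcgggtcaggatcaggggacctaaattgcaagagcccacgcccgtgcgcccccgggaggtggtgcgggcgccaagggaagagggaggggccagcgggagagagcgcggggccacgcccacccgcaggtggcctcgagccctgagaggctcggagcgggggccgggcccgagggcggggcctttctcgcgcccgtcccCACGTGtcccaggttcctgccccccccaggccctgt
Slc25a13: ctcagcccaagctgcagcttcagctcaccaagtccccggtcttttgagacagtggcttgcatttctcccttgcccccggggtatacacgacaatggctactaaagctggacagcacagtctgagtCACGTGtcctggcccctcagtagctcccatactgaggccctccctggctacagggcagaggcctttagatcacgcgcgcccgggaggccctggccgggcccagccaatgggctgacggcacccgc
The capitals start 104 bases before the start site in Sp5, 36 bases before it in Ass1 and 125 bases before it in Slc25a13. The deposited Ass1 gene begins at base 31470207, inside its window, and RefSeq places the outermost start of Slc25a13 at base 6217304, also inside its window. Promoter sequences were matched for 22 of the 33 members, with 26 windows. On both strands, the D-box letters TTANGTAA were in no member window and in 2.06% of 32851 windows of the same length over all genes. The TCF/LEF letters CTTTGAT were in the windows of Hal, Lect2, Nags, Slc1a2 and Sp5, against 3.21% of all windows. The E-box letters CACGTG were in the windows of Ass1, Pigr, Slc25a13 and Slc25a15, against 6.02% of all windows. These matches describe the letters in the windows only.

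Libraries held 16035121 to 23981021 total gene reads, and values below are total gene reads relative to library size after TMM scaling (CPM) unless stated otherwise. The targeted gene Nfil3 had 71.1, 69.8 and 62.6 CPM in TG livers at ZT2, against 48.8, 29.4 and 37.6 CPM in WT livers at ZT2. At ZT14 it had 63.8, 93.9 and 77.9 CPM in TG livers, against 28.1, 40.4 and 24.6 CPM in WT livers. Every TG library stood above every WT library. On the log2 scale Nfil3 differed by 0.81 at ZT2 (SE 0.21, edgeR adjusted p = 0.359) and by 1.34 at ZT14 (SE 0.21, adjusted p = 0.0306). The ZT14 call was lost in 8 of the 12 fits that left out 1 library, with adjusted p-values of 0.0568 to 0.217. It held only without replicate 1 or 2 of WT at ZT2, replicate 2 of WT at ZT14 or replicate 1 of TG at ZT14. Over both times Nfil3 was higher by 1.07 on the log2 scale (SE 0.15, edgeR adjusted p = 0.00942), and the adjusted p was 0.0639 without the pair of libraries described next. TG at ZT2 replicate 2 stood apart, together with TG at ZT14 replicate 3, from the other 10 libraries on the second principal component. With all members and other gene lists left out of that component, they lay at -30.6 and -32.9, against 1.63 to 12.4 for the others. Summed hepatocyte markers (Alb, Apoa1, Ttr, Apob and Tat) were abundant in every library, at 60938 to 73513 CPM in TG and 59817 to 64275 CPM in WT livers at ZT2, and 63759 to 74796 CPM in TG and 59085 to 66553 CPM in WT livers at ZT14. The highest sums at each time belonged to the libraries that stood apart.

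Per transcript length, 3 periportal enzymes were the most abundant members. On the deposited TPM scale, the median level over the 12 libraries was 2457 TPM for Ass1, 1529 TPM for Cps1 and 1526 TPM for Arg1, all enzymes of the urea cycle. Among pericentral members, Rgn, a calcium-binding lactonase of ascorbate synthesis, led with a median of 1054 TPM. Aldh1a1, a retinaldehyde dehydrogenase, followed at 804 TPM, and Glul at 698 TPM. The Wnt targets and feedback genes were scarce, between 12.8 TPM for the transcription factor Tbx3 and 1.07 TPM for the R-spondin receptor Lgr5. Levels of Wnt-linked members therefore rested on fewer reads than those of the enzymes, with 72 to 210 reads per library for Lgr5 and 37232 to 119260 for Ass1.

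In each TG group, 1 library had a low pericentral median and a high periportal median, and these were the same libraries that stood apart. Set against the WT mean at its time, the median pericentral member lay at -0.38 on the log2 scale in TG at ZT2 replicate 2 and at -0.27 in TG at ZT14 replicate 3. The median periportal member lay at 0.49 and 0.46 in the same libraries. In the other 4 TG libraries, the medians ran from -0.02 to 0.15 for pericentral and from -0.05 to 0.09 for periportal members. In the WT libraries they ran from -0.10 to 0.04 for pericentral and from -0.09 to 0.16 for periportal members. TG at ZT2 replicate 2 was the highest of the 6 libraries of its time for 16 of the 18 periportal members and the lowest for 8 of the 15 pericentral members, where 20.2% of all genes tested were highest and 18.9% lowest in that library. TG at ZT14 replicate 3 was the highest of its 6 for 14 of the 18 and the lowest for 10 of the 15, where 21.3% of all genes were highest and 22.6% lowest in it. Some members went the other way. TG at ZT2 replicate 2 was the lowest for 2 periportal members, Slc25a13 and Pigr, and the highest for 1 pericentral member, Oat. TG at ZT14 replicate 3 was the lowest for the periportal Slc25a13, Pigr and Cdh1, and the highest for the pericentral Oat and Slc1a4. A skewed share of places was not limited to these 2 libraries. WT at ZT2 replicate 3 was the lowest of its 6 for 9 of the 18 periportal members, where 16.1% of all genes were.

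**Figure D1:**
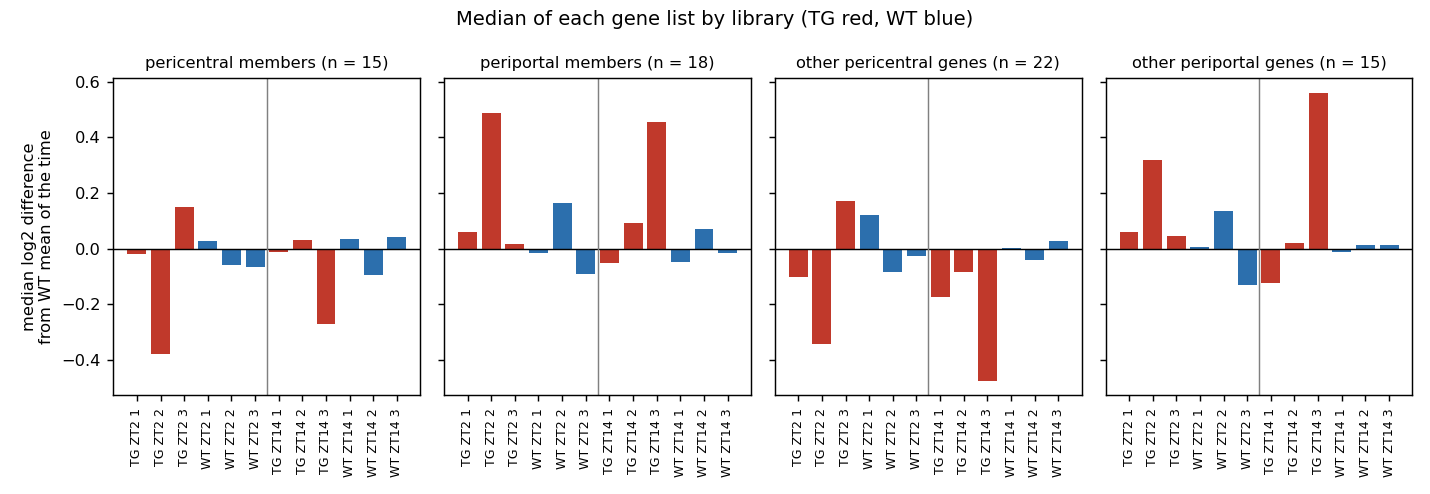
Median log2 difference from the WT mean of the same time, per library, for pericentral members, periportal members and 2 lists of other zonated genes; bars are TG (red) and WT (blue) libraries, with ZT2 left and ZT14 right of the grey line. Periportal medians of 0.49 and 0.46 stand in TG ZT2 2 and TG ZT14 3, where pericentral medians are -0.38 and -0.27.

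Counted over all 12 libraries, that pair held the lowest values of 4 of 15 pericentral members, against 3.73% of all genes tested. These were Glul, Sp5, a Wnt-induced transcription factor, Rhbg, an ammonium transporter, and Aldh1a1. The same pair held the highest values of 9 of 18 periportal members, against 4.43% of all genes. These were Ass1, Arg1, Slc25a15, Sds, Gls2, Uroc1, Etnppl, Hsd17b13 and Aldh1b1. Among pericentral members Oat, the ornithine aminotransferase found beside Glul, had its highest values there too. Many genes on 2 lists outside the 33 members ran the same way, and these lists were chosen with earlier results of these data known. The pair held the lowest values of 10 of 22 other pericentral genes, among them Cyp2e1, Cyp1a2, Cyp2c50 and Slco1b2, and the highest values of 6 of 15 other periportal genes, among them Fbp1 and Hsd17b6. Cyp2f2, a periportal cytochrome P450, did not, with 1147 CPM in TG at ZT2 replicate 2 and 998 CPM in TG at ZT14 replicate 3, against 1061 to 1458 CPM in the other 10 libraries. These genes were chosen for naming after their values were seen. Among the 6 libraries of its time, TG at ZT2 replicate 2 was the lowest for 13 of the 22 other pericentral genes and the highest for 2. TG at ZT14 replicate 3 was the lowest for 13 and the highest for 5 of the 22, where 21.3% of all genes were highest in it. For the 15 other periportal genes, these libraries were the highest for 8 and 11 and the lowest for 0 and 1. TG at ZT14 replicate 1 was the lowest of its 6 for 9 of these 15, where 19.1% of all genes were. WT at ZT2 replicate 3 was the lowest of its 6 for 7 of them, where 16.1% of all genes were.

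**Figure D2:**
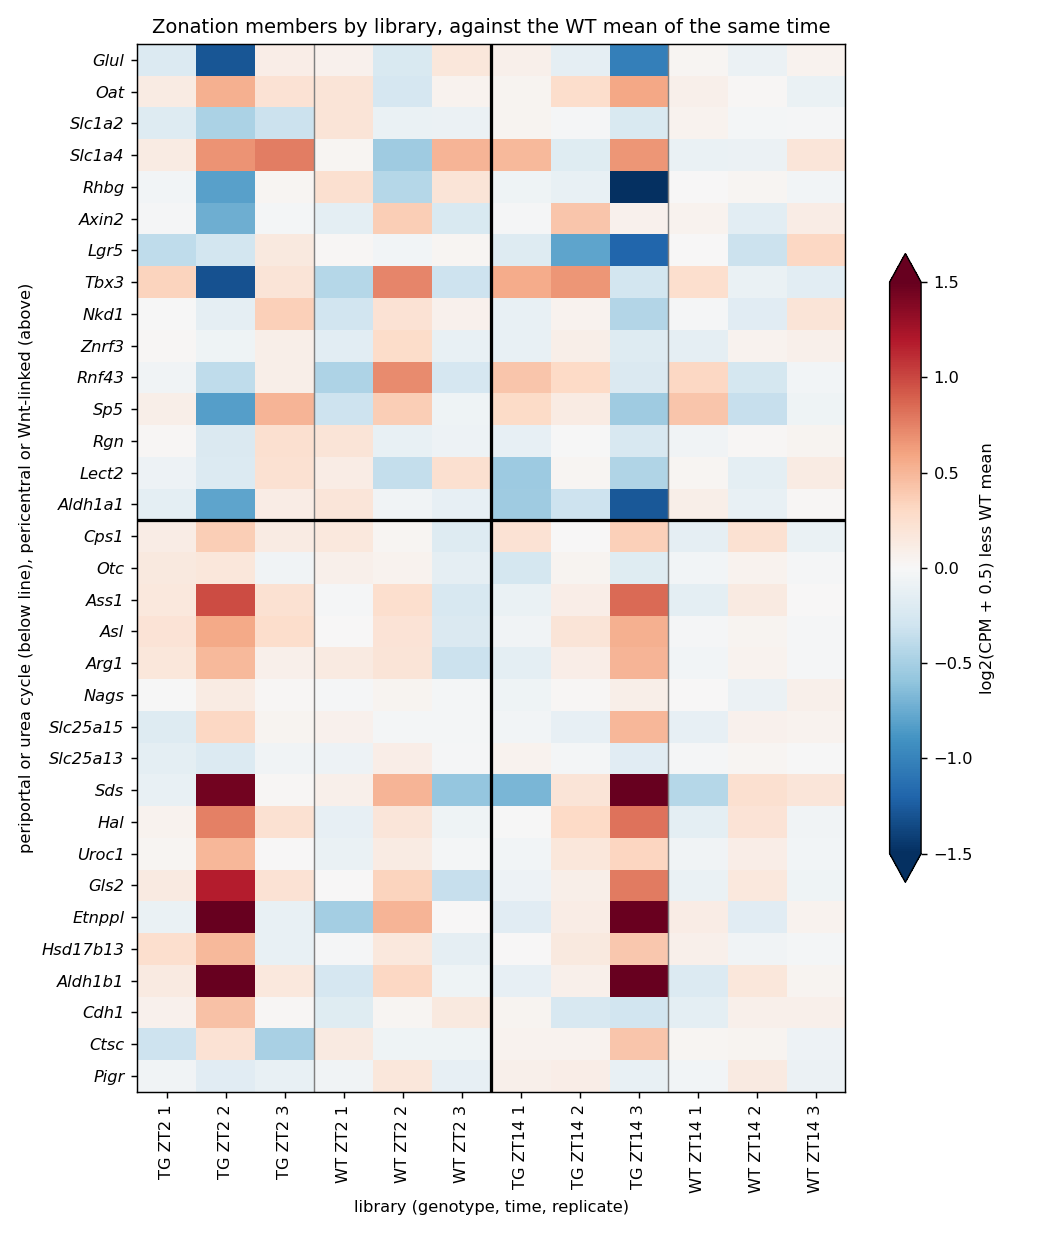
Log2(CPM + 0.5) of each member in each library less the WT mean of the same time, red for higher and blue for lower, with TG left of WT at each time. The columns TG ZT2 2 and TG ZT14 3 show blue in Glul and Aldh1a1 above the line and red in Ass1, Gls2, Etnppl and Aldh1b1 below it.

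The sum of the markers of central vein endothelium was also low in these 2 libraries. The summed level of its 5 markers (Wnt2, Wnt9b, Rspo3, Thbd and Kit) was 14.3 CPM in TG at ZT2 replicate 2 and 13.4 CPM in TG at ZT14 replicate 3. The other TG libraries had 19.7 to 24.7 CPM and the WT libraries 16.3 to 23.4 CPM. Of these 5 markers only Wnt9b, a Wnt ligand of the central vein, is given singly here, so the sum does not show how each ran. Wnt9b stood at 0.38 and 0.52 CPM in the pair, against 0.82 to 2.03 CPM in the rest, levels that rest on few reads. Kupffer cell markers, 6 in number, summed to 307 and 296 CPM in the pair, against 218 to 291 CPM in the rest. Erythroid markers, 4 in number, summed to 411 CPM in TG at ZT2 replicate 2 and 309 CPM in TG at ZT14 replicate 3, against 187 to 273 CPM in the rest. Lymphocyte and neutrophil markers, 6 in number, summed to 19.2 and 17.7 CPM in the pair, against 10.6 to 17.5 CPM in the rest. Sinusoidal endothelial markers, 6 in number, summed to 281 and 261 CPM in the pair, within the 237 to 287 CPM of the rest. Cholangiocyte markers, 7 in number, summed to 57.3 to 117 CPM over all libraries, with the pair at 82.7 and 63.2 CPM. Stellate cell and fibroblast markers, 6 in number, summed to 144 to 198 CPM in TG and 115 to 147 CPM in WT livers at ZT2, and 134 to 183 CPM in TG and 126 to 139 CPM in WT livers at ZT14. No marker of these lists was at 0 in all libraries. In whole tissue, fewer cells of a type and less RNA per cell cannot be told apart. The part of these cell types in the members' levels was not tested.

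Between genotypes, no member passed the threshold. The edgeR quasi-likelihood test called 0 of 33 members at ZT2, with an adjusted p below 0.05 for 0.0722% of all genes tested, and DESeq2 also called 0 members, with 0.374% of all genes. At an unadjusted p below 0.05 there were 2 members, Slc1a2 and Asl, where 7.56% of all genes passed. At ZT14, edgeR and DESeq2 both called 0 of 33, where edgeR called 0.0853% and DESeq2 0.348% of all genes, and 2 members, Lgr5 and Aldh1a1, had an unadjusted p below 0.05, where 6.91% of all genes did. Averaged over both times, both tools again called 0 members, where edgeR called 0.144% and DESeq2 0.492% of all genes. By edgeR 10 members had an unadjusted p below 0.05, where 8.82% of all genes did. These were Oat, Slc1a2, Slc1a4, Lgr5, Aldh1a1, Ass1, Asl, Hal, Gls2 and Aldh1b1. Without the pair that stood apart, none of these averaged estimates changed sign. The ZT14 estimates of Slc1a2, Ass1, Gls2 and Aldh1b1 did change sign without that pair. The periportal members had a median log2 fold change of 0.21 at ZT2 and 0.19 at ZT14, with 15 of 18 estimates above 0 at each time. The pericentral members had medians of -0.16 and -0.07, with 9 and 10 of 15 estimates below 0, while the medians over all genes tested were -0.00303 and 0.00748. Without the pair of libraries that stood apart, which leaves 2 TG libraries at each time, the medians were 0.04 and -0.00331 for periportal and 0.05 and -0.02 for pericentral members, and edgeR called 0 members.

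**Figure D3:**
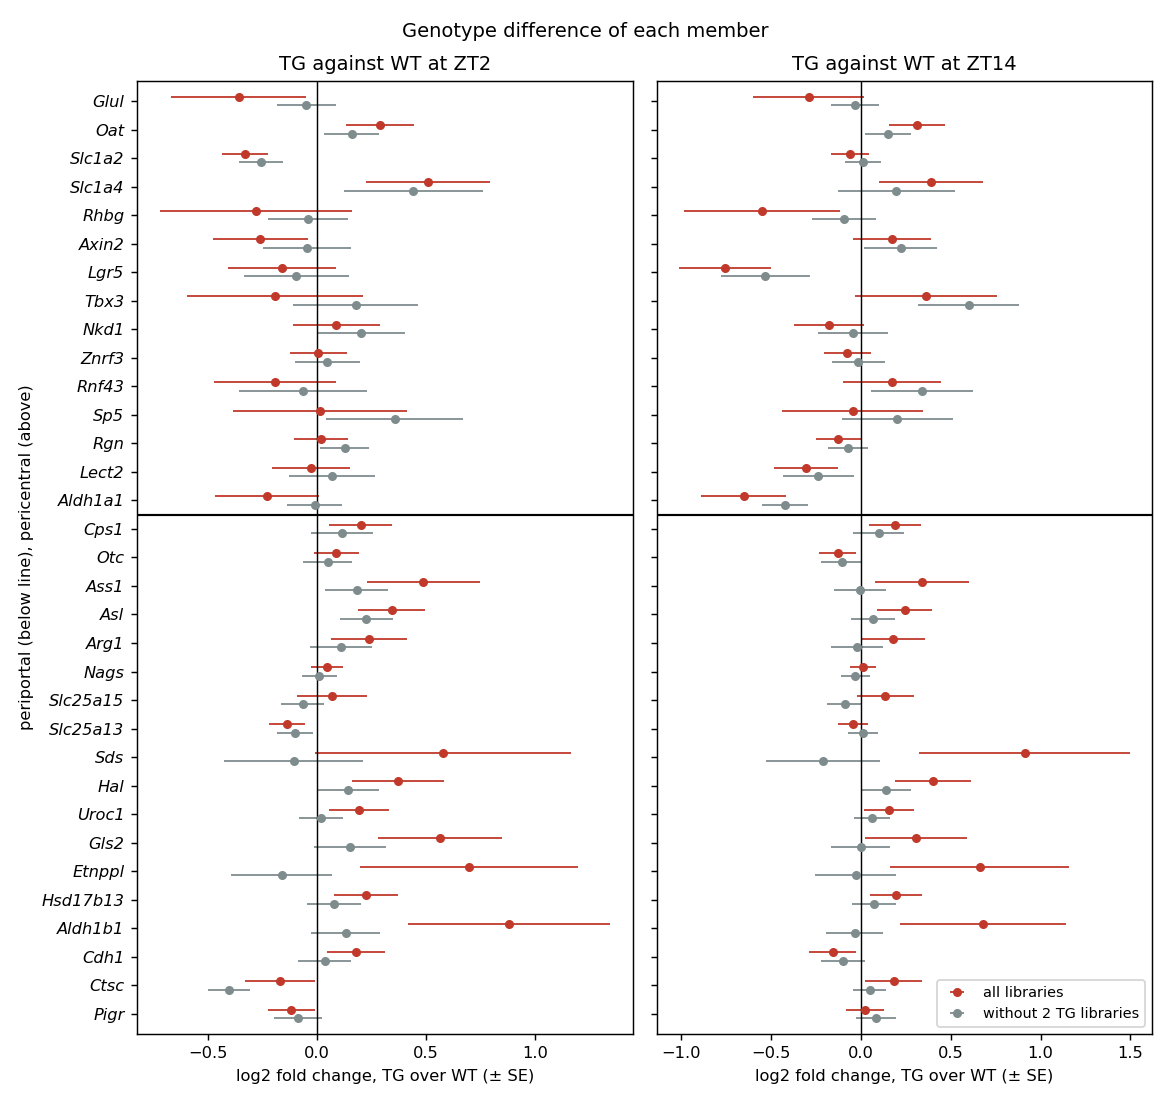
Log2 fold change of each member, TG over WT, at ZT2 (left panel) and ZT14 (right panel), with bars of 1 standard error, for all libraries (red) and without TG ZT2 2 and TG ZT14 3 (grey). Red points of Aldh1b1, Etnppl, Gls2 and Sds lie right of 0 and their grey points lie near 0, while Lgr5 and Aldh1a1 stay left of 0 at ZT14.

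The 5 pericentral genes of ammonia and amino acid handling had a median genotype difference of -0.28 at ZT2 and -0.06 at ZT14 on the log2 scale. Glul, which makes glutamine from ammonia, had 965, 457 and 1188 CPM in TG livers at ZT2, against 1155, 945 and 1247 CPM in WT livers. At ZT14 it had 1053, 908 and 490.0 CPM in TG livers, against 1022, 943 and 1035 CPM in WT livers. The library that stood apart held the lowest value at each time, and the other TG values lay within or close to the WT range. On the log2 scale, Glul differed by -0.36 (SE 0.31) at ZT2 and -0.29 (SE 0.31) at ZT14, and -0.05 (SE 0.14) and -0.03 (SE 0.14) without the pair. The edgeR adjusted p of these 4 estimates ran between 0.832 and 0.984.

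Rhbg had 9.27, 8.95 and 1.75 CPM in TG livers at ZT14, against 9.78, 9.95 and 9.40 CPM in WT livers. The 3 values of each genotype did not overlap, but 2 of the TG values lay just below WT, and the log2 fold change was -0.55 (SE 0.43, edgeR adjusted p = 0.815). Rhbg at ZT2 had 8.37, 4.67 and 8.77 CPM in TG livers, against 10.2, 6.27 and 9.88 CPM in WT livers. Only 29.6% of reads on Rhbg mapped uniquely, and it overlaps Gm38392 on the same strand, so its level is uncertain. Oat had 527, 704 and 564 CPM in TG livers at ZT2, against 555, 409 and 505 CPM in WT livers. Oat at ZT14 had 395, 462 and 576 CPM in TG livers, against 407, 389 and 359.9 CPM in WT livers. The groups overlapped at both times, and the log2 fold changes were 0.29 (SE 0.16) and 0.31 (SE 0.16), with edgeR adjusted p = 0.702 and 0.706. Oat overlaps Fgfr2 on the same strand, and 61.0% of its reads mapped uniquely. Slc1a2, a glutamate transporter, had 142, 116 and 129.8 CPM in TG livers at ZT2, against 185, 151 and 152 CPM in WT livers. These groups did not overlap, as for 5.86% of all genes in that direction and 6.25% in the other, and the log2 fold change was -0.33 (SE 0.11, edgeR adjusted p = 0.536). Slc1a4, a neutral amino acid transporter, stood at 3.97 to 10.5 CPM in TG and 3.99 to 8.74 CPM in WT livers.

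**Figure D4:**
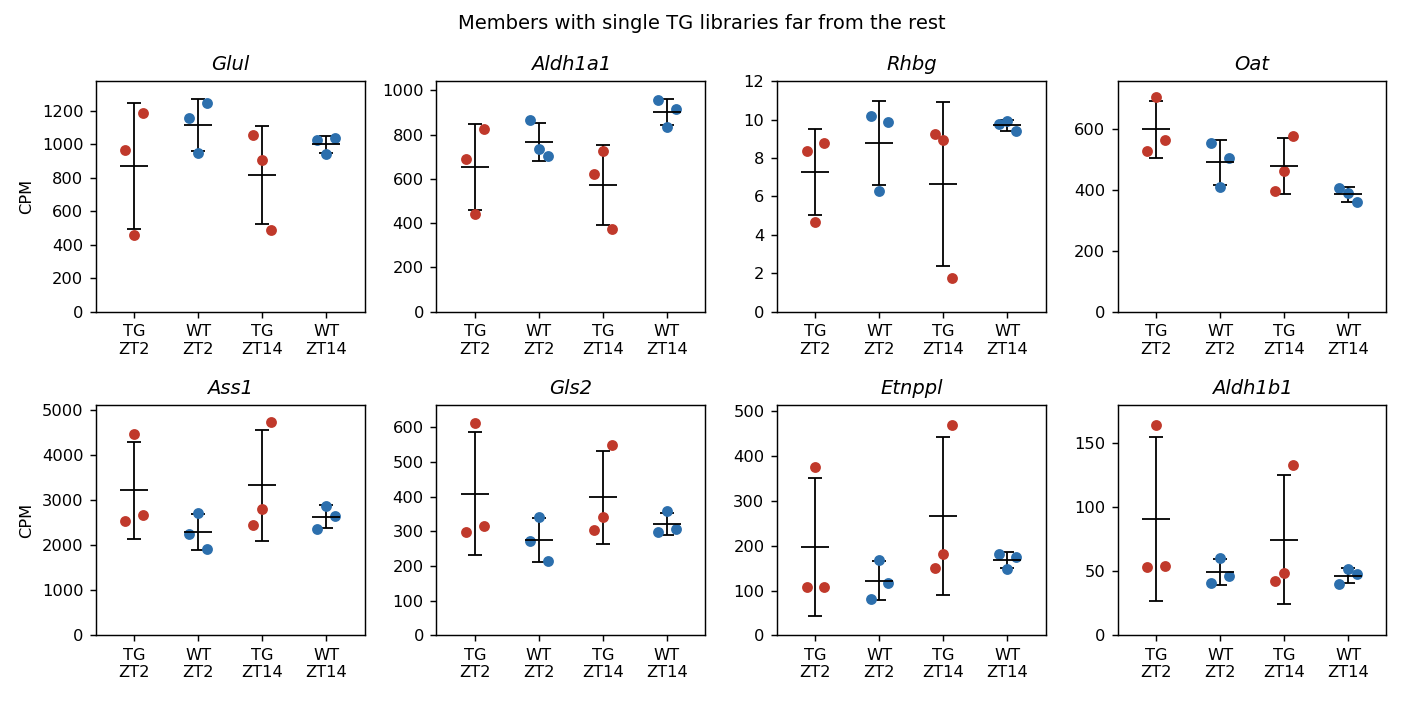
CPM of 8 members per library, with TG (red) left of WT (blue) at each time, the horizontal line at the mean and bars of 1 SD over 3 libraries. In Glul and Aldh1a1 at both times and in Rhbg at ZT14, a single TG point lies far below the others, and in Ass1, Gls2, Etnppl and Aldh1b1 a single TG point lies far above.

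Among the remaining pericentral enzymes and secreted factors, Aldh1a1 separated by genotype at ZT14. It had 623, 726 and 373 CPM in TG livers, against 956, 837 and 915 CPM in WT livers. All 3 TG values lay below all WT values, as for 6.32% of all genes in that direction. Its log2 fold change was -0.65 (SE 0.24, edgeR adjusted p = 0.638) with all libraries and -0.42 (SE 0.13, adjusted p = 0.678) without the pair. At ZT2 the groups overlapped, at 692, 443 and 828 CPM in TG livers, against 865, 733 and 702 CPM in WT livers. Rgn stood at 626 to 939.8 CPM in TG and 715 to 909 CPM in WT livers. Lect2, a secreted chemotactic factor, stood at 41.4 to 65.8 CPM in TG and 43.7 to 66.0 CPM in WT livers.

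None of the 7 Wnt targets and feedback genes differed between genotypes by the test, and their medians were -0.16 at ZT2 and -0.04 at ZT14. Axin2, a negative regulator that serves as a readout of β-catenin, had 10.8, 6.43 and 10.8 CPM in TG livers at ZT2, against 9.88, 14.4 and 9.36 CPM in WT livers. Axin2 at ZT14 had 7.25, 9.92 and 7.67 CPM in TG livers, against 7.59, 6.53 and 7.94 CPM in WT livers. The groups overlapped at both times. Lgr5 had 6.18, 3.92 and 2.86 CPM in TG livers at ZT14, against 7.18, 5.64 and 9.01 CPM in WT livers. These groups overlapped, with a log2 fold change of -0.76 (SE 0.25, edgeR adjusted p = 0.618). Tbx3, whose locus overlaps the antisense gene Tbx3os1, had 37.8, 11.8 and 34.0 CPM in TG livers at ZT2, against 22.0, 49.8 and 24.0 CPM in WT livers. At ZT14 it had 44.6, 47.9 and 24.9 CPM in TG livers, against 36.1, 28.2 and 27.1 CPM in WT livers, again with overlap. The ubiquitin ligases Znrf3 and Rnf43, which remove Wnt receptors, stood at 11.1 to 16.2 and 21.1 to 45.6 CPM in TG, against 11.6 to 18.5 and 19.99 to 45.6 CPM in WT livers, and 49.1% of Znrf3 reads lay in introns. The Dishevelled antagonist Nkd1 stood at 4.45 to 7.70 CPM in TG and 4.75 to 7.21 CPM in WT livers, and Sp5 at 1.26 to 3.96 CPM in TG and 1.79 to 3.54 CPM in WT livers.

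The 8 urea cycle members had a median genotype difference of 0.15 at ZT2 and 0.16 at ZT14 on the log2 scale, and none passed the test. Cps1, the mitochondrial entry enzyme of the cycle, had 3481, 4167 and 3517 CPM in TG livers at ZT2, against 3583, 3295 and 2826 CPM in WT livers. At ZT14 it had 4728, 4090.0 and 5217 CPM in TG livers, against 3729, 4792 and 3801 CPM in WT livers. Arg1, which releases urea, had 900.3, 1117 and 840.2 CPM in TG livers at ZT2, against 873, 909 and 639 CPM in WT livers. At ZT14 Arg1 had 938, 1111 and 1471 CPM in TG livers, against 1007, 1076 and 1025 CPM in WT livers. The genotypes overlapped for both enzymes at both times. Ass1, argininosuccinate synthase, had 2542, 4469 and 2669 CPM in TG livers at ZT2, against 2252, 2722 and 1925 CPM in WT livers. At ZT14 Ass1 had 2454, 2808 and 4742 CPM in TG livers, against 2375, 2885 and 2644 CPM in WT livers. Its high values came from the library that stood apart at each time, and 61.3% of its reads mapped uniquely. For Ass1 the log2 fold change was 0.49 (SE 0.26) at ZT2 and 0.34 (SE 0.26) at ZT14, and 0.18 (SE 0.15) and -0.01 (SE 0.15) without the pair. Asl at ZT2 differed by 0.34 (SE 0.15, edgeR adjusted p = 0.651), and its values are given with those on time of day. Nags, which makes the activator of Cps1, stood at 80.7 to 92.5 CPM in TG and 79.1 to 91.6 CPM in WT livers. Otc, the ornithine transcarbamylase, stood at 295 to 421 CPM in TG and 341 to 395 CPM in WT livers. The mitochondrial ornithine carrier Slc25a15 stood at 246 to 383 CPM in TG and 248 to 293 CPM in WT livers.

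The group of amino acid breakdown held 5 members, with the phosphoethanolamine lyase Etnppl counted among them. Their median genotype difference was 0.57 on the log2 scale at ZT2 and 0.40 at ZT14, and none passed the test. Without the pair that stood apart, these medians were 0.02 and -0.00128. Sds, serine dehydratase, had 90.2, 267 and 98.3 CPM in TG livers at ZT2, against 102, 138 and 64.8 CPM in WT livers. At ZT14 Sds had 97.4, 179 and 625 CPM in TG livers, against 116, 185 and 178 CPM in WT livers. The value of 625 CPM was more than any other of the 12. For Sds the log2 fold change was 0.58 (SE 0.59) at ZT2 and 0.91 (SE 0.59) at ZT14, and -0.11 (SE 0.32) and -0.21 (SE 0.32) without the pair. Sds overlaps Plbd2 and Gls2 overlaps Spryd4 on the opposite strand, and whether counting used strand is not given in the sources used here. Gls2, the liver glutaminase, had 297, 613 and 316 CPM in TG livers at ZT2, against 273, 341 and 214 CPM in WT livers. At ZT14 Gls2 had 303, 341 and 550.1 CPM in TG livers, against 299, 359 and 306 CPM in WT livers. Apart from 613 and 550.1 CPM, every TG value lay within the WT range of its time. The log2 fold change of Gls2 was 0.57 (SE 0.28) at ZT2 and 0.31 (SE 0.28) at ZT14, and 0.15 (SE 0.17) and -0.00128 (SE 0.17) without the pair.

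Hal, which opens histidine breakdown, had 411, 667 and 465 CPM in TG livers at ZT2, against 363, 449 and 379 CPM in WT livers. At ZT14 Hal had 258, 318 and 455 CPM in TG livers, against 233, 298 and 250.1 CPM in WT livers. Its groups overlapped at both times, and the log2 fold change was 0.37 (SE 0.21) at ZT2 and 0.40 (SE 0.21) at ZT14. Etnppl, a lyase of phosphoethanolamine named here after its values were seen, had 109, 376 and 109 CPM in TG livers at ZT2, against 82.0, 167 and 117 CPM in WT livers. At ZT14 Etnppl had 149, 181 and 469 CPM in TG livers, against 182, 149 and 174 CPM in WT livers. The high value of each TG group came from the library that stood apart. Its log2 fold change was 0.70 (SE 0.50) at ZT2 and 0.66 (SE 0.50) at ZT14, and -0.16 (SE 0.23) and -0.03 (SE 0.23) without the pair. Uroc1, urocanate hydratase, stood at 316 to 446 CPM in TG and 293 to 364 CPM in WT livers.

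The other 5 periportal members did not differ by the test either. Aldh1b1, a mitochondrial aldehyde dehydrogenase also chosen after its values were seen, had 53.3, 164 and 54.1 CPM in TG livers at ZT2, against 40.6, 60.4 and 46.4 CPM in WT livers. At ZT14 it had 42.5, 48.7 and 133 CPM in TG livers, against 40.2, 52.1 and 47.5 CPM in WT livers. Its log2 fold change was 0.88 (SE 0.46) at ZT2 and 0.68 (SE 0.46) at ZT14, and 0.13 (SE 0.16) and -0.03 (SE 0.16) without the pair. Ctsc, a lysosomal peptidase, was the single member with higher values in all 3 TG than in all 3 WT libraries at ZT14, as for 6.12% of all genes in that direction, with 61.1, 60.8 and 78.2 CPM in TG livers, against 60.1, 60.5 and 55.7 CPM in WT livers. The margin between the groups was under 1 CPM. Cdh1, a junction protein, stood at 62.5 to 112 CPM in TG and 68.8 to 91.3 CPM in WT livers. Hsd17b13, a lipid droplet enzyme, stood at 211 to 340.1 CPM in TG and 208 to 271 CPM in WT livers. Pigr, the receptor that carries immunoglobulin A into bile, stood at 798 to 992 CPM in TG and 813 to 1159 CPM in WT livers. With all libraries, the edgeR adjusted p-values of Ass1, Sds, Gls2, Hal, Etnppl and Aldh1b1 for genotype lay between 0.683 and 0.864 at both times.

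Asl, argininosuccinate lyase of the urea cycle, rose at ZT14 in both genotypes. Asl had 635, 753 and 958 CPM in TG livers at ZT14, against 352, 453 and 368 CPM in TG livers at ZT2. WT livers had 649.6, 680.3 and 650.0 CPM at ZT14, against 308, 353 and 264 CPM at ZT2. All 6 libraries at ZT14 lay above all 6 at ZT2. Asl (ENSMUSG00000025533, chromosome 5, 130011258 to 130029247 on the minus strand in the deposited tables) rose in TG livers by 1.00 on the log2 scale (SE 0.15, edgeR adjusted p = 0.00153). It rose in WT livers by 1.10 (SE 0.16, edgeR adjusted p = 0.000927), which is 2.14-fold. The TG time difference minus the WT one was -0.10 (SE 0.22, edgeR adjusted p = 0.969). Both calls held however 1 of the 12 libraries was left out, with adjusted p-values of at most 0.0119 in TG and 0.00696 in WT livers.

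Reads within the introns of Asl, which lie mostly in unspliced RNA, were also more numerous at ZT14. They numbered 869, 1397 and 3057 in TG livers at ZT14, against 177, 267 and 477 in TG livers at ZT2. In WT livers there were 576, 683 and 1379 at ZT14, against 158, 406 and 161 at ZT2. Every count at ZT14 lay above every count at ZT2, but these counts were not scaled for library size. Libraries held 21979960 to 23981021 total gene reads at ZT14 and 16035121 to 22534291 at ZT2. On intron reads alone the log2 fold change was 2.10 (SE 0.52, edgeR adjusted p = 0.0298) in TG livers and 1.43 (SE 0.51, adjusted p = 0.188) in WT livers, so the WT call was lost there.

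Of the 33 members, edgeR called 4 for time in TG livers, where 12.2% of all genes passed, and 1 in WT livers, where 9.17% did. DESeq2 called 6 in TG livers, with 13.8% of all genes, and 2 in WT livers, with 11.2%. Its further calls were Hal in both genotypes and Otc in TG livers. An unadjusted p below 0.05 was reached by 8 members in TG livers, where 26.3% of all genes did, and by 7 in WT livers, where 23.2% did. The members' share of edgeR calls in TG livers was near, and in WT livers below, that of all genes. For the difference of the time effects between genotypes, edgeR and DESeq2 called 0 of 33 members, where edgeR called 0.00656% and DESeq2 0.138% of all genes, and 0 members had an unadjusted p below 0.05, where 5.98% of all genes did.

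The median time difference on the log2 scale was -0.18 in TG and -0.11 in WT livers for pericentral members, with 12 and 10 of 15 estimates below 0. For periportal members it was 0.07 in TG and 0.14 in WT livers, with 12 and 11 of 18 estimates above 0, and over all genes tested it was 0.00550 in TG and 0.00510 in WT livers. Values at ZT14 all lay above those at ZT2 for 2 members in TG livers (Asl and Slc25a13) and for 4 in WT livers (Asl, Slc25a13, Cps1 and Arg1), as for 15.8% of all genes in TG and 15.3% in WT livers. They all lay below for 3 members in TG livers (Lgr5, Znrf3 and Cdh1) and for 5 in WT livers (Oat, Axin2, Hal, Ctsc and Pigr), as for 14.3% of all genes in TG and 14% in WT livers.

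Beside Asl, the calls in TG livers were Slc25a13, the mitochondrial aspartate-glutamate carrier, which rose, and Lgr5 and Cdh1, which fell. In the deposited tables Slc25a13 (ENSMUSG00000015112) lies on chromosome 6 at 6041218 to 6217173, minus strand, Lgr5 (ENSMUSG00000020140) on chromosome 10 at 115450311 to 115587780, minus strand, and Cdh1 (ENSMUSG00000000303) on chromosome 8 at 106603351 to 106670246, plus strand. Slc25a13 had 260.3, 245 and 222 CPM in TG livers at ZT14, against 198, 190.0 and 211 CPM in TG livers at ZT2. WT livers had 246, 256 and 249 CPM at ZT14, against 208, 234 and 217 CPM at ZT2. The times did not overlap in either genotype, as for 15.8% of all genes that were higher at ZT14 in TG and 15.3% in WT livers. By the fit, Slc25a13 differed by 0.28 (SE 0.08, edgeR adjusted p = 0.0464) in TG and 0.19 (SE 0.08, adjusted p = 0.193) in WT livers on the log2 scale. The difference between them was 0.09 (SE 0.12, edgeR adjusted p = 0.949). The call was lost without any 1 library other than TG at ZT14 replicate 3, with edgeR adjusted p-values of 0.0502 to 0.176. Without the pair that stood apart, it was 0.29 (adjusted p = 0.0867).

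Lgr5 had 6.18, 3.92 and 2.86 CPM in TG livers at ZT14, against 6.75, 7.31 and 10.002 CPM in TG livers at ZT2. WT livers had 7.18, 5.64 and 9.01 CPM at ZT14, against 9.08, 8.67 and 9.15 CPM at ZT2. The times did not overlap in TG livers, as for 14.3% of all genes that were lower at ZT14, and overlapped in WT livers. Time differences of Lgr5 were -0.90 (SE 0.26, edgeR adjusted p = 0.0394) in TG and -0.30 (SE 0.25, adjusted p = 0.525) in WT livers on the log2 scale, and the difference between them was -0.60 (SE 0.36, adjusted p = 0.888). Leaving out any 1 of 7 libraries lost the call, with edgeR adjusted p-values of 0.0505 to 0.156. These were replicates 2 and 3 of TG at ZT14, of TG at ZT2 and of WT at ZT2, and replicate 1 of WT at ZT14. Without the pair that stood apart it was -0.75 (adjusted p = 0.125).

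Cdh1, the E-cadherin of epithelial junctions, had 78.3, 64.6 and 62.5 CPM in TG livers at ZT14, against 85.9, 112 and 83.1 CPM in TG livers at ZT2. In WT livers it had 68.8, 80.1 and 80.3 CPM at ZT14, against 72.6, 83.8 and 91.3 CPM at ZT2. Only the TG values separated by time. Time differences of Cdh1 were -0.45 (SE 0.13, edgeR adjusted p = 0.0440) in TG and -0.11 (SE 0.13, adjusted p = 0.681) in WT livers on the log2 scale, and the difference between them was -0.34 (SE 0.19, adjusted p = 0.880). Leaving out any 1 of 7 libraries lost this call too, with edgeR adjusted p-values of 0.0514 to 0.145. These were replicates 2 and 3 of TG at ZT14, replicate 2 of TG at ZT2, each WT library at ZT14 and replicate 2 of WT at ZT2. Without the pair it was -0.26 (adjusted p = 0.280).

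**Figure D5:**
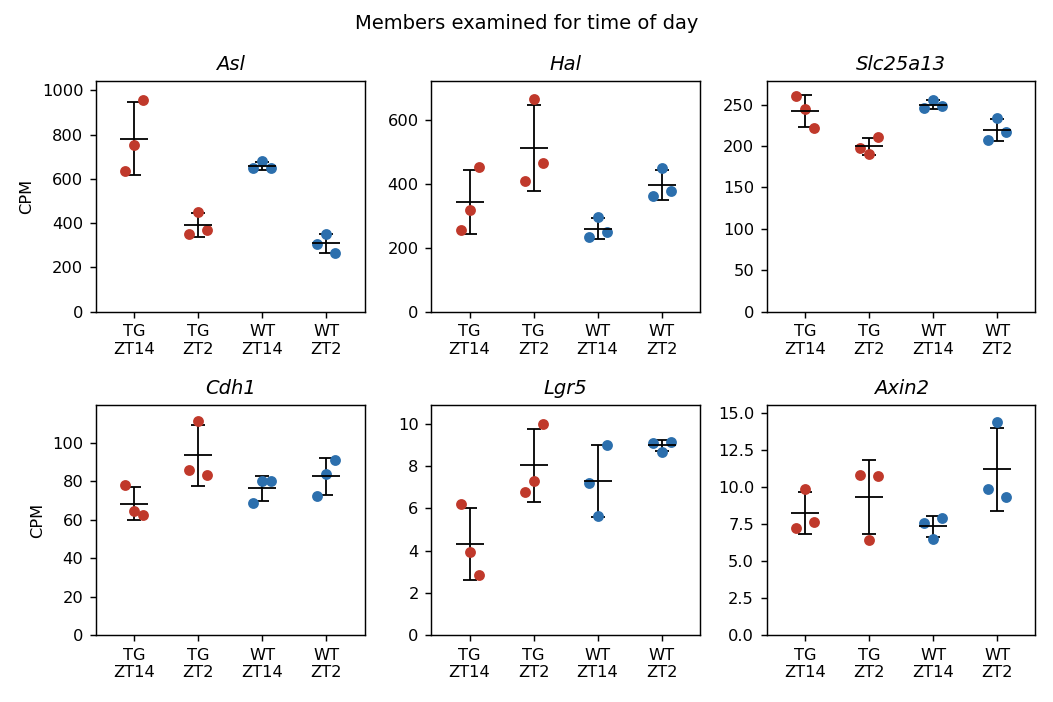
CPM of 6 members per library, with ZT14 left of ZT2 in TG (red) and in WT (blue), the horizontal line at the mean and bars of 1 SD over 3 libraries. Asl at 635 CPM or more at ZT14 lies above 453 CPM, its highest value at ZT2, and Lgr5 is lower at ZT14 in TG livers.

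Estimates for Hal in both genotypes and for Axin2 in WT livers lay below 0 for time without passing the threshold. Hal had 258, 318 and 455 CPM in TG livers at ZT14, against 411, 667 and 465 CPM in TG livers at ZT2. In WT livers it had 233, 298 and 250.1 CPM at ZT14, against 363, 449 and 379 CPM at ZT2. The times did not overlap in WT livers, as for 14% of all genes that were lower at ZT14. By the fit, Hal differed by -0.58 (SE 0.21, edgeR adjusted p = 0.0957) in TG and -0.61 (SE 0.21, adjusted p = 0.0977) in WT livers on the log2 scale. Without TG at ZT14 replicate 3 alone, it was -0.84 (adjusted p = 0.0188) in TG and -0.61 (adjusted p = 0.0455) in WT livers. Without the pair that stood apart, it was -0.62 in both genotypes, with an edgeR adjusted p of 0.0348 in TG and 0.0103 in WT livers. Axin2 had 7.59, 6.53 and 7.94 CPM in WT livers at ZT14, against 9.88, 14.4 and 9.36 CPM at ZT2, with a log2 fold change of -0.60 (SE 0.22, edgeR adjusted p = 0.112). In TG livers Axin2 had 7.25, 9.92 and 7.67 CPM at ZT14, against 10.8, 6.43 and 10.8 CPM at ZT2. The TG values overlapped, with a log2 fold change of -0.17 (SE 0.22, edgeR adjusted p = 0.674). Cps1 differed by 0.33 (SE 0.14, adjusted p = 0.167) in TG and 0.34 (SE 0.14, adjusted p = 0.169) in WT livers on the log2 scale.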

How the data were processed

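Read counts per gene (total gene reads) and TPM values were deposited by the authors, 1 table per library, per the file headers. Total gene reads count exon and intron reads together. Genome builds mm10 and GRCm38 are named in the submitters' processing notes. The sources used here do not give the aligner, the counting tool or the use of strand. Deposited counts were tested, and TPM served only to order the levels of genes. Low genes were removed with filterByExpr of edgeR 4.0.16 (R 4.3.3), at its minimum count of 10 and minimum total of 15, and 15244 genes remained. One quasi-likelihood model with TMM scaling was fitted to all 12 libraries in 4 groups, and p-values were adjusted over all genes tested by Benjamini and Hochberg, with a threshold of 0.05. SE is the standard error of a log2 fold change. Libraries held 16035121 to 23981021 total gene reads. Chi-square per degree of freedom between replicates was 9.85 to 90.9, so that no pair was counted as 1 sample. Values in every library are given for members past the threshold, for members whose genotypes did not overlap and differed by at least 0.5 on the log2 scale, and for 10 anchor genes. Outside these rules, single library values are also given for Ass1, for Slc1a2 at ZT2 and for Ctsc at ZT14. Further members are given by range or are named as chosen after their values were seen. Of other lists, genes past the threshold are named, at most 6 per list and contrast. Alternatives were DESeq2 1.42.0, limma-voom 3.58.1, RLE scaling, no scaling beyond library size, 2 other filters, uniquely mapped, exon or intron reads, a replicate block, the 6 samples of a contrast, each library left out, and both libraries that stood apart left out. The members, lists and alternatives were chosen with earlier results of these data known. The fit was tested on simulated data.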

Additional observations from a re-analysis of the deposited data

How the results depend on the processing

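The count of members called for genotype and for the difference between time effects was 0 under every alternative run and in all 12 fits that left out 1 library. For time in TG livers it was 4, and 1 with a replicate block and in the fit to the 6 samples of the contrast, 2 without both libraries that stood apart and 1 to 3 with 1 library left out. For time in WT livers it was 1, and 2 by DESeq2, with no filter beyond 1 read and in the fit to the 6 samples, 0 on intron reads alone, 3 without both libraries that stood apart and 1 to 2 with 1 library left out. Replicate numbers did not pair the samples: over 18 same-numbered pairs, the correlation of deviations ran from -0.253 to 0.154. With the replicate block the TG calls of Lgr5, Cdh1 and Slc25a13 had adjusted p = 0.0530, 0.0656 and 0.0704 by edgeR. On intron reads alone the TG count was also 4, but shared only Asl with the calls on total reads: the others were Otc (-0.73, adjusted p = 0.0190), Hsd17b13 (-0.90, adjusted p = 0.0432) and Pigr (-1.07, adjusted p = 0.0384), with Lgr5, Slc25a13 and Cdh1 at adjusted p = 0.428, 0.938 and 0.987. Of 31 members fitted on intron reads, the sign turned for 11 at ZT2 and 3 at ZT14 for genotype, 8 over both times, 9 for time in TG, 5 in WT and 10 for the difference between them. Among estimates given in the text or here, it turned for Aldh1a1 (0.38 at ZT2 and 0.17 at ZT14), Oat (-0.0551) and Etnppl (-0.0687) at ZT2, Cdh1 for time in TG (0.0105) and for the difference between genotypes (0.19), Slc25a13 likewise (-0.0362 and -0.31), Hal for time in WT (0.23), Asl for the difference between genotypes (0.68), Cyp2a5 for time in TG and WT (-1.02 and -0.53) Hsd17b13 for time in TG, and Nfil3 at ZT14 (-0.44) and over both times (-0.0664). Without both libraries that stood apart, the sign turned for 5 of 33 members at ZT2 and 11 at ZT14 for genotype, 12 over both times, 4 for time in TG, 0 in WT and 6 for the difference between them. Among genotype estimates given in the text, it turned for Sds (-0.11 at ZT2 and -0.21 at ZT14), Etnppl (-0.16 and -0.0293), and at ZT14 for Ass1 (-0.00535), Gls2 (-0.00128) and Aldh1b1 (-0.0348). With 1 library left out, the genotype estimates ran from -0.11 to 0.86 for Sds and -0.16 to 0.99 for Etnppl at ZT2, lowest without TG replicate 2 of that time. At ZT14 they ran from -0.00139 to 0.52 for Ass1, -0.21 to 1.33 for Sds, -0.0258 to 0.95 for Etnppl and -0.0307 to 0.96 for Aldh1b1, lowest without TG replicate 3 of that time. The difference between the time effects of Asl ran from -0.27 to 0.0317. The time estimate of Hsd17b13 in TG, 0.13 with all libraries, ran from -0.0130 to 0.26. For Nfil3 at ZT14 the call was also lost with the replicate block, in the fit to the 6 samples and without both libraries that stood apart, and at ZT2 it was gained by DESeq2 and with no filter beyond 1 read. Of the single-gene values recomputed, 1345 kept their direction and call, 60 lost the call, 15 gained it and 32 turned. Over all genes, DESeq2 called 57 at ZT2 and 53 at ZT14 for genotype, 75 over both times and 21 for the difference between time effects, against 11, 13, 22 and 1 by edgeR, and no filter beyond 1 read gave 43, 41, 61 and 11. Intron reads gave 3, 4, 4 and 2, with 698 for time in TG and 239 in WT, against 1862 and 1398. Both time counts also fell by over 1.5 times with libraries left out, to 1127 in TG and 770 in WT at the lowest, and to 1150 in TG without both libraries that stood apart, and the mean-of-times count was 12 there. With 1 library left out, the genotype count was 7 to 22 at ZT2 and 13 to 25 over both times, and the count for the difference between time effects was 0 to 3. That last count was 4 with RLE scaling and with uniquely mapped reads, and 2 with the replicate block and without both libraries that stood apart. The cause of these shifts was not tested. Low counts limit the Wnt-linked members, with 23 to 74 reads per library for Sp5 and 44 to 233 for Rhbg.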

Other observations

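Related genes that are no members were also compared between times, where edgeR called 12.2% of all genes tested in TG and 9.17% in WT livers in either direction. Of 17 other nitrogen genes tested, 3 were called higher and 1 lower at ZT14 in TG livers and 4 higher and 1 lower in WT livers, and these counts were given no test against those shares. Gpt2, the mitochondrial alanine aminotransferase, had 652, 596 and 549 CPM in TG livers at ZT14, against 355, 308 and 398 CPM in TG livers at ZT2. In WT livers it had 619, 598 and 612 CPM at ZT14, against 324, 329.9 and 285 CPM at ZT2. It rose by 0.76 (SE 0.11, edgeR adjusted p = 0.000879) in TG and 0.96 (SE 0.11, adjusted p = 0.000218) in WT livers on the log2 scale. Amdhd1, the enzyme after Hal and Uroc1 in histidine breakdown, averaged 121 ± 27.6 CPM in TG livers at ZT14, against 269 ± 56.2 CPM in TG livers at ZT2 (SD, n = 3 each). In WT livers it averaged 114 ± 23.9 CPM at ZT14, against 224 ± 25.5 CPM at ZT2, and its log2 fold changes were -1.15 (SE 0.19, edgeR adjusted p = 0.00261) in TG and -0.97 (SE 0.19, adjusted p = 0.00762) in WT livers. Prodh, the proline dehydrogenase, rose in WT livers by 0.93 (SE 0.17, edgeR adjusted p = 0.00441), and the TG time difference minus the WT one was -0.40 (SE 0.24, adjusted p = 0.888).

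Of 26 Wnt pathway genes tested, edgeR called 1 higher and 2 lower at ZT14 in TG livers, where 12.2% of all genes were called, and 0 higher and 1 lower in WT livers, where 9.17% were. Lrp5, a Wnt co-receptor, fell in both genotypes, by 0.67 (SE 0.10, edgeR adjusted p = 0.00141) in TG and 0.54 (SE 0.10, adjusted p = 0.00550) in WT livers on the log2 scale. Bcl9l, a β-catenin coactivator, had 55.9, 58.7 and 49.7 CPM in TG livers at ZT14, against 34.3, 41.2 and 40.2 CPM in TG livers at ZT2, and 49.1 to 54.5 against 49.2 to 53.8 CPM in WT livers. It rose in TG livers by 0.50 (SE 0.09, edgeR adjusted p = 0.00401), and the TG time difference minus the WT one was 0.50 (SE 0.13, adjusted p = 0.641). Of 22 other pericentral genes, 1 was called higher and 1 lower at ZT14 in TG livers and 3 higher and 1 lower in WT livers, beside the same 12.2% and 9.17% of all genes. Cyp2a5, a cytochrome P450 of the pericentral layer whose reads can be shared with its near-identical copy Cyp2a4, had 497, 883 and 632 CPM in TG livers at ZT14, against 201, 196 and 249.8 CPM in TG livers at ZT2. In WT livers it had 1044, 886 and 895 CPM at ZT14, against 185, 214 and 135 CPM at ZT2. It rose by 1.64 (SE 0.21, edgeR adjusted p = 0.000454) in TG and 2.40 (SE 0.21, adjusted p = 3.53e-05) in WT livers, and the difference between them was -0.77 (SE 0.29, adjusted p = 0.768). Of 15 other periportal genes, 3 were called higher in TG and 2 in WT livers, again beside 12.2% and 9.17% of all genes. Of these 24 calls in the lists, 13 held in each fit that left out 1 library, and genes are named only from among those.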
